A study of Mus musculus with 18 samples.

Results

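Fibronectin and 8 matricellular glycoproteins were followed in mouse embryonic fibroblasts (MEF cells, cultured matrix-producing cells bought as a cell stock). The 9 genes Fn1, Tnc, Postn, Sparc, Thbs1, Thbs2, Thbs3, Spp1 and Tgfbi were taken by gene name from a table of 55450 genes. Filtering on low counts left 21161 genes for testing, and 8 of the 9 genes were among them, the exception being Tgfbi. The 18 RNA libraries formed 6 groups of 3. Cells carried the empty vector (pcDNA3), Col1a1-miR-29b or CMV-miR-29b, and each of these was grown without TGF-β or with it for 24 h, starting 6 h after transfection. Both miR-29b vectors held a human miR-29b-1 precursor with a fluorescent reporter, driven by a Col1a1 promoter, which is itself active in fibroblasts and responds to TGF-β, or by the CMV promoter, which is active in most cells. All 6 groups had a plasmid brought in with a lipid reagent, no source used here describes a selection for cells that took it up, and no untransfected cells were among the groups. The empty vector carried no miR-29b precursor and, being empty pcDNA3, none of the fluorescent proteins (EGFP and mRFP1) of the miR-29b plasmids. Per the paper, plasmids were dosed by moles, so the mass of DNA was larger for Col1a1-miR-29b than for CMV-miR-29b. The part of these differences in the results was not tested.

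Matricellular proteins are secreted into the extracellular matrix but serve as signals more than as scaffold. They bind integrins, syndecans, CD36, CD44, CD47 and LRP1 on the cell surface and shape adhesion, collagen assembly and growth factor activity. Fibronectin is the adhesive glycoprotein on which many of them assemble. In fibroblasts TGF-β is a classical inducer of this group during wound repair and fibrosis, and thrombospondin-1 can in turn activate latent TGF-β. The microRNA miR-29b represses matrix genes, above all collagens, by pairing its seed (bases 2 to 8) with messenger RNAs.

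The mature miR-29 sequences are shown first, since the vectors differ in whether they make one of them, with the seed in capitals (mouse sequences from RefSeq, build GRCm38.p6). Mature miR-29b lies at chr1:195037091-195037113 on the plus strand and, with the same letters, at chr6:31063025-31063047 on the minus strand. Its relatives miR-29a (chr6:31062673-31062694, minus strand) and miR-29c (chr1:195037600-195037621, plus strand) share the 7 letters of the seed.
miR-29b-3p: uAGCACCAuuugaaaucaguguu
miR-29a-3p: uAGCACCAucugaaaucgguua
miR-29c-3p: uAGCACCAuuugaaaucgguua

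The letters that pair with the seed, TGGTGCT, occurred in the 3′ UTR of 0 of the 9 genes, searched on the sense strand of 1 GENCODE M21 transcript a gene. Over 14328 tested genes with an annotated 3′ UTR, 14.0% held them there. A shorter pairing to bases 2 to 7 followed by A, GGTGCTA, was searched after no match to the first had been seen. It occurred in 1 of the 9 genes, Sparc, which held it at 2 places of its 1085-base 3′ UTR, against 7.21% of the same 14328 genes with at least 1. The 2 kinds overlap in the letters GGTGCT. In the coding sequence TGGTGCT occurred in Fn1, Tnc and Tgfbi, that is in 3 of the 9 genes, against 20.4% of the 14328. The shorter GGTGCTA occurred in the coding sequence of Postn and Tnc, 2 of the 9 genes, against 7.38%. These shares are not matched for length. The coding sequences of Fn1 and Tnc have 7161 and 6060 bases. The 3′ UTRs of the 9 genes run from 253 (Thbs3) to 2104 bases (Thbs1), beside a median of 992 over the 14328. All matches of Sparc, Fn1 and Tnc are printed because these 3 genes differed between the vectors, with the matching letters in capitals (GRCm38, minus strand for all 3 genes).
Sparc 3′ UTR, chr11:55395458-55395486: cctggggataaGGTGCTAacatagattta
Sparc 3′ UTR, chr11:55395425-55395453: aatacattaacGGTGCTAaaaaaaaaaaa
Fn1 coding sequence, chr1:71641280-71641308: ggaaattccaaTGGTGCTctgtgccactt
Tnc coding sequence, chr4:64000062-64000090: tttttcattcaGGTGCTAgaggctgacac
Tnc coding sequence, chr4:63993128-63993156: cataatatatcTGGTGCTgaacggactgc
A match of letters is a description of the sequence and not a measured site.

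Total counts per library ran from 65898017 to 80332633, with a median of 74155860. Of 12 fibroblast markers, 10 passed the low-count filter, whereas Lum stood at 0 in all 18 libraries and Thy1 reached at most 0.114 CPM (counts scaled to library size). Markers of macrophages and other immune cells summed to between 22.2 and 28.2 CPM, most of it from Cd68 (mean 11.3 CPM), Cd14 (7.92) and Lyz2 (4.64), which were present in every library. Adgre1 and Itgam of that list stood at or near 0, at most 0.131 CPM, and Ibsp of osteoblasts stood at 0. The endothelial list summed to at most 3.83 CPM and the epithelial list to at most 3.05 CPM. The osteoblast list, nearly all of it Runx2, summed to 14.4 to 36.5 CPM and the skeletal muscle list, nearly all of it Des, to 13.8 to 21.9 CPM. Reads over mouse Mir29b-1 numbered 110 to 309 counts in CMV-miR-29b cells without TGF-β and 203 to 293 with it, 0 to 1 and 2 to 6 in Col1a1-miR-29b cells, and 0 in every empty vector library. Poly(A) libraries read the precursor transcript and do not measure the mature microRNA.

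Per unit of transcript length, the 9 genes spanned over 4 orders of magnitude. FPKM (fragments per kilobase of transcript, scaled to library size, in the 16 libraries for which it was used) averaged 233 for Sparc, a collagen-binding glycoprotein, and 134 for Fn1. Spp1 (osteopontin, an integrin and CD44 ligand) averaged 65.1 FPKM, Thbs1 27.7, Tnc (tenascin-C) 6.28 and Thbs3 3.08. Postn (periostin), Thbs2 and Tgfbi lay far lower, at 0.147, 0.144 and 0.00897 FPKM. Sparc, at 177 to 291 FPKM, lay above Fn1, at 116 to 158, in every library, and Fn1 above Spp1, at 51.0 to 87.3. Thbs1 ran from 14.4 to 43.3 FPKM, between Spp1 and Tnc. The ranges of Tnc, 3.59 to 10.1, and Thbs3, 2.46 to 4.0, overlapped, as did those of Postn, 0.00498 to 0.401, and Thbs2, 0.0658 to 0.281. Postn and Thbs2 exchanged places when counts per kilobase of exon were used. The 9 genes together took 0.248% to 0.365% of all counts, of which Fn1 and Sparc held 85.2% to 90.7%.

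**Figure D1:**
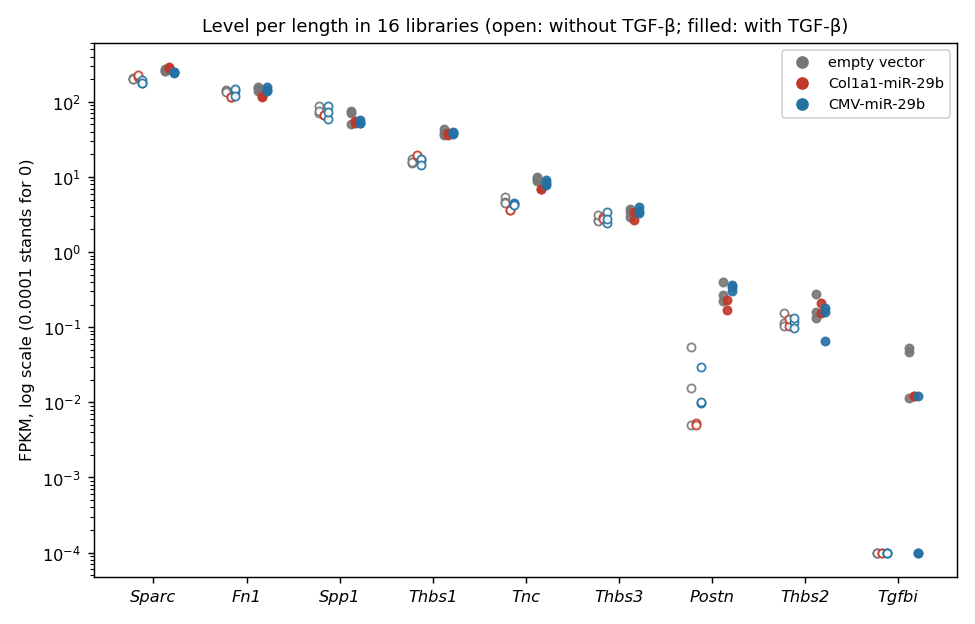
FPKM of each gene (log scale on the y axis, with 0.0001 standing for 0) in the 16 libraries for which FPKM was used, with open points for cells without TGF-β, filled points for cells with it, and a colour for each vector. Sparc and Fn1 lie highest, the points of Tnc and Thbs3 overlap, and Postn moves from at most 0.0538 FPKM without TGF-β to at least 0.170 with it.

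TGF-β treatment raised Thbs1, Tnc, Postn and Sparc in empty vector cells, and left the other 4 tested genes short of the threshold (adjusted p under 0.05, edgeR quasi-likelihood test with Benjamini-Hochberg adjustment over the 21161 genes). So 4 of 8 genes were called, all 4 of them higher, where 5.88% of all tested genes were called and 3.88% were called higher. The same 4 genes were called higher with Col1a1-miR-29b, where 4.32% of all genes were called and 3.0% called higher. CMV-miR-29b gave these 4 as well, where 4.95% were called and 3.08% called higher. The median log2 fold change of the 8 genes was 0.52, 0.47 and 0.38 in empty vector, Col1a1-miR-29b and CMV-miR-29b cells, beside medians over all tested genes of 0.0023, -0.0056 and -0.0025. Summed markers moved with TGF-β too: from 2340 to 2723 up to 4648 to 5628 CPM for fibroblasts (mostly collagen genes), from 21.4 to 21.7 up to 28.5 to 36.5 CPM for osteoblasts, from 0.799 to 1.202 up to 1.71 to 3.05 CPM for epithelial cells and from 1.37 to 1.97 up to 3.27 to 3.83 CPM for endothelial cells in empty vector cells, and their part in the result was not tested. In bulk RNA, more cells that express a gene and more RNA per cell cannot be told apart. Values below are CPM scaled by TMM factors, which correct for library composition, and fold changes come from the fit of all 18 libraries. Where groups are said not to overlap, the share of all tested genes without overlap was not counted.

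**Figure D2:**
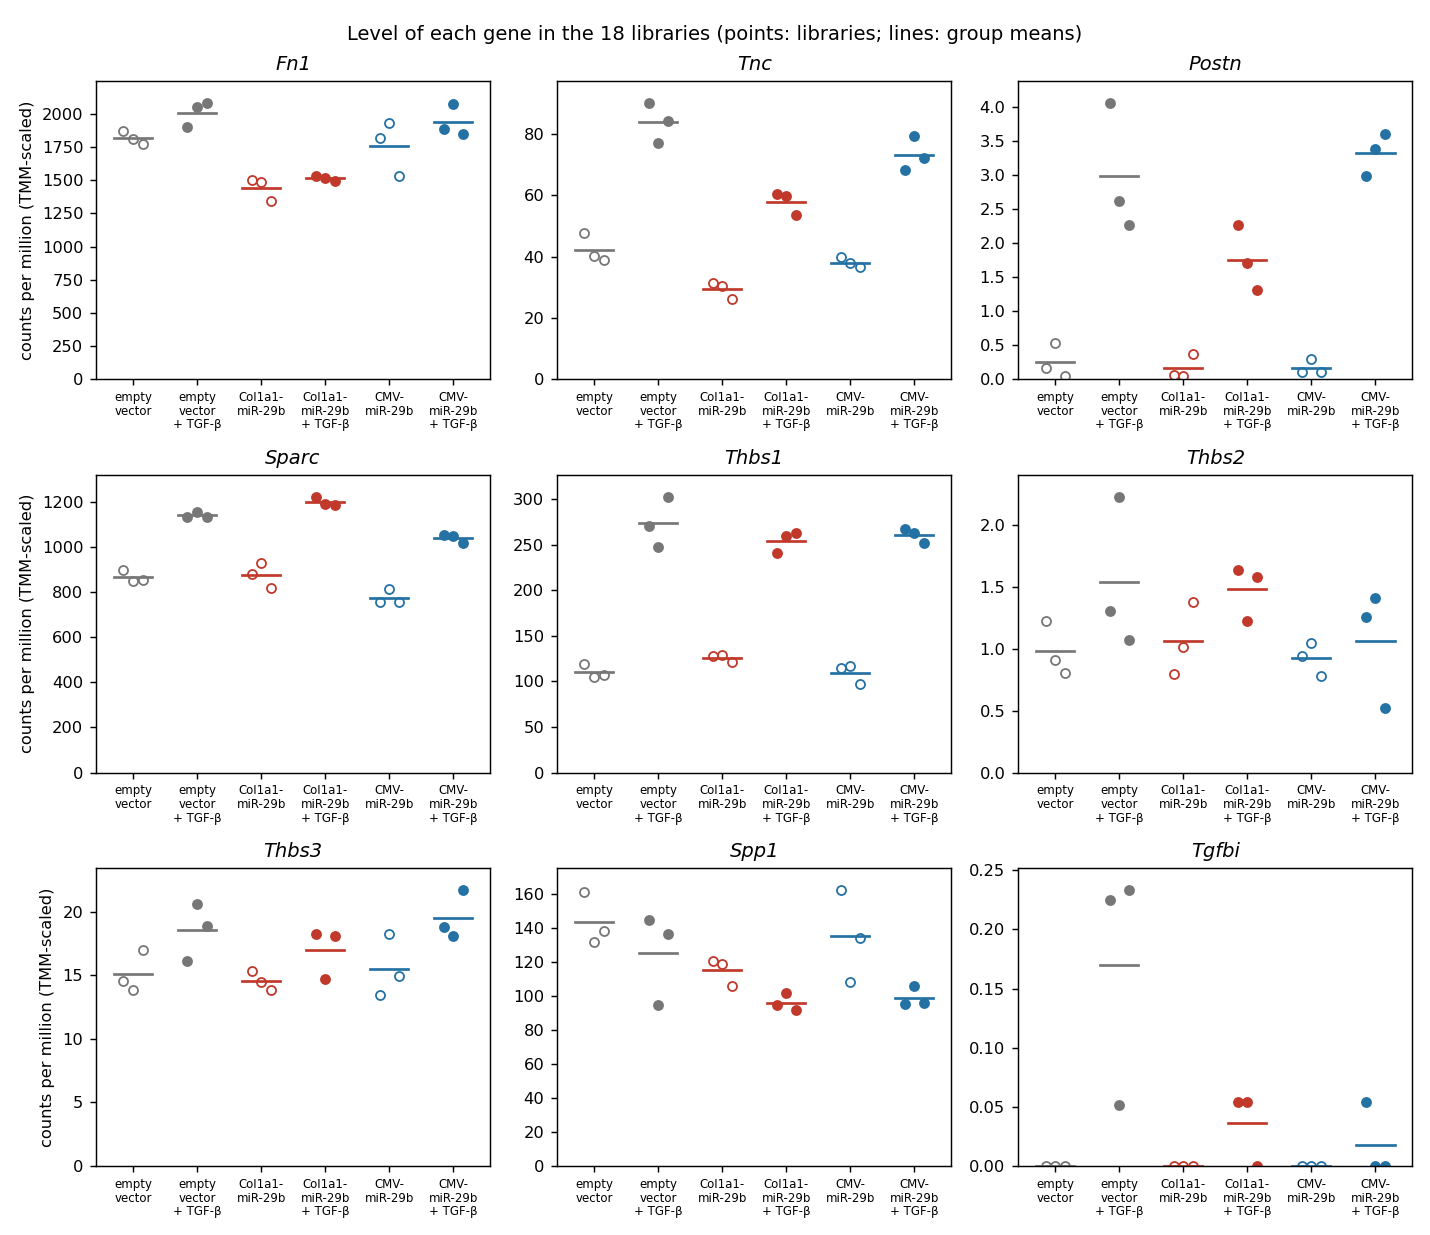
Level of each of the 9 genes in CPM (y axis, from 0, TMM-scaled) in the 18 libraries, by group, with a point for each library and a line for the mean of each group of 3. With TGF-β (filled points) Thbs1, Tnc, Postn and Sparc lie above the untreated libraries of the same vector without overlap, and Fn1 and Tnc are lowest in Col1a1-miR-29b cells.

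Thbs1 (thrombospondin-1, ENSMUSG00000040152, chr2:118111876-118127133, plus strand, GRCm38) binds CD36 and CD47 and activates latent TGF-β. Empty vector cells had 119, 104 and 107 CPM without TGF-β and 270, 248 and 303 CPM with it. Col1a1-miR-29b cells had 127, 129 and 121 CPM without it and 241, 260 and 263 CPM with it. For CMV-miR-29b cells the values were 114, 117 and 97.1 CPM, and 267, 263 and 252 CPM with TGF-β. All 9 treated libraries stood above all 9 untreated libraries. The rise was 1.32 ± 0.08 (SE) on the log2 scale, or 2.49-fold, in empty vector cells (edgeR adjusted p = 3.0e-08), 1.01 ± 0.08 in Col1a1-miR-29b cells (adjusted p = 7.7e-07) and 1.25 ± 0.08 in CMV-miR-29b cells (adjusted p = 6.5e-08).

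Tnc (tenascin-C, ENSMUSG00000028364, chr4:63959785-64020725, minus strand) is a modular glycoprotein of remodelling tissue that weakens adhesion to fibronectin. Without TGF-β, empty vector cells had 47.7, 40.2 and 38.9 CPM and with it 90.1, 77.2 and 84.2 CPM. In Col1a1-miR-29b cells the values went from 31.4, 30.5 and 26.2 CPM to 60.4, 59.8 and 53.6 CPM. In CMV-miR-29b cells they went from 39.8, 38.0 and 36.5 CPM to 68.3, 79.4 and 72.1 CPM. Treated and untreated libraries did not overlap, and Col1a1-miR-29b libraries were the lowest at both conditions. Tnc rose 1.98-fold in empty vector cells (log2 0.99 ± 0.09, edgeR adjusted p = 3.9e-06), 1.97-fold in Col1a1-miR-29b cells (0.98 ± 0.09, adjusted p = 5.9e-06) and 1.92-fold in CMV-miR-29b cells (0.94 ± 0.09, adjusted p = 7.3e-06).

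Postn (periostin, ENSMUSG00000027750, chr3:54361109-54391037, plus strand) is an integrin ligand that promotes collagen cross-linking. Its counts were low, so raw counts are given. Empty vector libraries held 13, 42 and 4 counts without TGF-β and 289, 204 and 165 with it. Col1a1-miR-29b libraries held 4, 4 and 27 counts without TGF-β and 167, 125 and 92 with it. CMV-miR-29b libraries held 8, 23 and 8 counts, and 219, 221 and 262 with TGF-β. The highest untreated library, at 42 counts, lay below the lowest treated library, at 92. The fitted rise was 3.59 ± 0.71 on the log2 scale in empty vector cells (95% interval 2.08 to 5.09, edgeR adjusted p = 0.0050), 3.44 ± 0.73 in Col1a1-miR-29b cells (1.89 to 5.00, adjusted p = 0.0107) and 4.29 ± 0.74 in CMV-miR-29b cells (2.71 to 5.86, adjusted p = 0.0020). The wide intervals go with the untreated libraries, in which a few counts set the level. Without the untreated empty vector library d, which held 42 counts, the rise was 4.77. Without the untreated Col1a1-miR-29b library whose title letter is not given it was 4.98, and without untreated CMV-miR-29b library d it was 4.98 as well. Without untreated Col1a1-miR-29b library c or d the rise in those cells was 3.03 and no longer past the threshold (adjusted p = 0.0631 and 0.0572), as with the groups compared alone (3.45, adjusted p = 0.0558). Of the 14 counts of Postn and Tgfbi from 1 to 40, 10 were multiples of 4, as are 25% of whole numbers, and how the counts were taken is not given in the sources used here.

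Sparc (osteonectin, ENSMUSG00000018593, chr11:55394500-55423183, minus strand), a collagen-binding regulator of matrix assembly, had 896, 850 and 851 CPM in empty vector cells and 1131, 1156 and 1133 CPM after TGF-β. Col1a1-miR-29b cells had 879, 929 and 816 CPM, and 1222, 1188 and 1185 CPM with TGF-β. CMV-miR-29b cells had 757, 813 and 754 CPM, and 1051, 1047 and 1019 CPM with TGF-β. Every treated library exceeded every untreated library, by a small and even margin. The rise was 1.32-fold in empty vector cells (log2 0.40 ± 0.04, edgeR adjusted p = 2.2e-05), 1.37-fold in Col1a1-miR-29b cells (0.45 ± 0.04, adjusted p = 6.8e-06) and 1.34-fold in CMV-miR-29b cells (0.42 ± 0.04, adjusted p = 1.3e-05). Tested against a change of at least 2-fold, which 0.274%, 0.198% and 0.284% of all tested genes passed in empty vector, Col1a1-miR-29b and CMV-miR-29b cells, 1 of the 8 genes was called in empty vector cells (Thbs1, edgeR adjusted p = 0.0334), 0 in Col1a1-miR-29b cells, and 1 with CMV-miR-29b (Postn, adjusted p = 0.0324).

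Fn1 (fibronectin, ENSMUSG00000026193, chr1:71585520-71653175, minus strand) did not pass the threshold with TGF-β in any vector. Empty vector cells had 1869, 1810 and 1772 CPM without TGF-β and 1899, 2050 and 2083 CPM with it. Col1a1-miR-29b cells had 1501, 1488 and 1344 CPM, and 1535, 1519 and 1497 CPM with TGF-β. CMV-miR-29b cells had 1820, 1931 and 1536 CPM, and 1890, 2075 and 1851 CPM with TGF-β. The groups did not overlap in empty vector cells and overlapped in both other vectors. The log2 difference was 0.15 (95% interval -0.0039 to 0.30, edgeR adjusted p = 0.31) in empty vector cells, 0.070 (-0.080 to 0.22, adjusted p = 0.77) in Col1a1-miR-29b cells and 0.14 (-0.013 to 0.29, adjusted p = 0.38) in CMV-miR-29b cells. These intervals lie within a change of 1.23-fold in either direction.

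The 2 other thrombospondins also stayed short of the threshold. Thbs2 (ENSMUSG00000023885, chr17:14665500-14694235, minus strand), like Thbs1 an inhibitor of blood vessel growth, had 1.22, 0.911 and 0.806 CPM in empty vector cells and 1.31, 2.23 and 1.07 CPM with TGF-β. Col1a1-miR-29b cells had 0.798, 1.01 and 1.37 CPM, and 1.64, 1.22 and 1.58 CPM with TGF-β. CMV-miR-29b cells had 0.942, 1.04 and 0.782 CPM, and 1.25, 1.41 and 0.522 CPM with TGF-β. The ranges of Thbs2 overlapped in all 3 vectors, and its log2 differences were 0.65, 0.48 and 0.20 in empty vector, Col1a1-miR-29b and CMV-miR-29b cells (SE 0.35 for each, edgeR adjusted p = 0.38, 0.64 and 0.88). At 38 to 173 counts per library, a change under about 2.61-fold in empty vector cells lay within its interval. Thbs3 (ENSMUSG00000028047, chr3:89215180-89226837, plus strand), of the pentameric thrombospondins, had 14.5, 13.8 and 16.9 CPM in empty vector cells and 16.1, 20.6 and 18.8 CPM with TGF-β. Col1a1-miR-29b cells had 15.3, 14.5 and 13.8 CPM, and 18.2, 14.7 and 18.1 CPM with TGF-β. CMV-miR-29b cells had 13.4, 18.2 and 14.9 CPM, and 18.8, 18.1 and 21.7 CPM with TGF-β. The groups of Thbs3 overlapped in all 3 vectors, although the treated mean was the higher in each. Its differences were 0.29, 0.23 and 0.33 (SE 0.13 for each, edgeR adjusted p = 0.25, 0.48 and 0.20).

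Spp1 (osteopontin, ENSMUSG00000029304, chr5:104435118-104441050, plus strand) leaned the other way. Empty vector cells had 161, 132 and 138 CPM without TGF-β and 145, 94.8 and 136 CPM with it. Col1a1-miR-29b cells had 120, 119 and 106 CPM, and 94.8, 101 and 91.5 CPM with TGF-β. CMV-miR-29b cells had 162, 108 and 134 CPM, and 95.04, 106 and 95.6 CPM with TGF-β. The groups overlapped in empty vector cells and did not in both miR-29b vectors. The log2 differences were -0.20 ± 0.15, -0.26 ± 0.15 and -0.45 ± 0.15 (edgeR adjusted p = 0.59, 0.48 and 0.11). In CMV-miR-29b cells the difference passed the threshold with DESeq2 (-0.46, adjusted p = 0.0359) and in edgeR without untreated CMV-miR-29b library d, whose 108 CPM was the lowest of its group (-0.59, adjusted p = 0.0316).

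Tgfbi (ENSMUSG00000035493, chr13:56609523-56639562, plus strand), an adhesion protein named for its induction by TGF-β, held 0 counts in all 9 untreated libraries, which allows up to 3 counts in each. With TGF-β it held 16, 4 and 17 counts in empty vector cells, 4, 4 and 0 in Col1a1-miR-29b cells and 4, 0 and 0 in CMV-miR-29b cells. The mean of 12.3 counts in treated empty vector cells was 4.11 times the floor of 3 counts per library, with 4 counts in the lowest library. In both miR-29b vectors the mean was under the floor, so no fold is given. Tgfbi did not pass the low-count filter and was not tested. The floor covers counting error only and takes each count as 1 read. Of the 14 low counts of Postn and Tgfbi, 10 were multiples of 4. If reads were counted more than once, the floor is too low and the 4.11 too high.

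**Figure D3:**
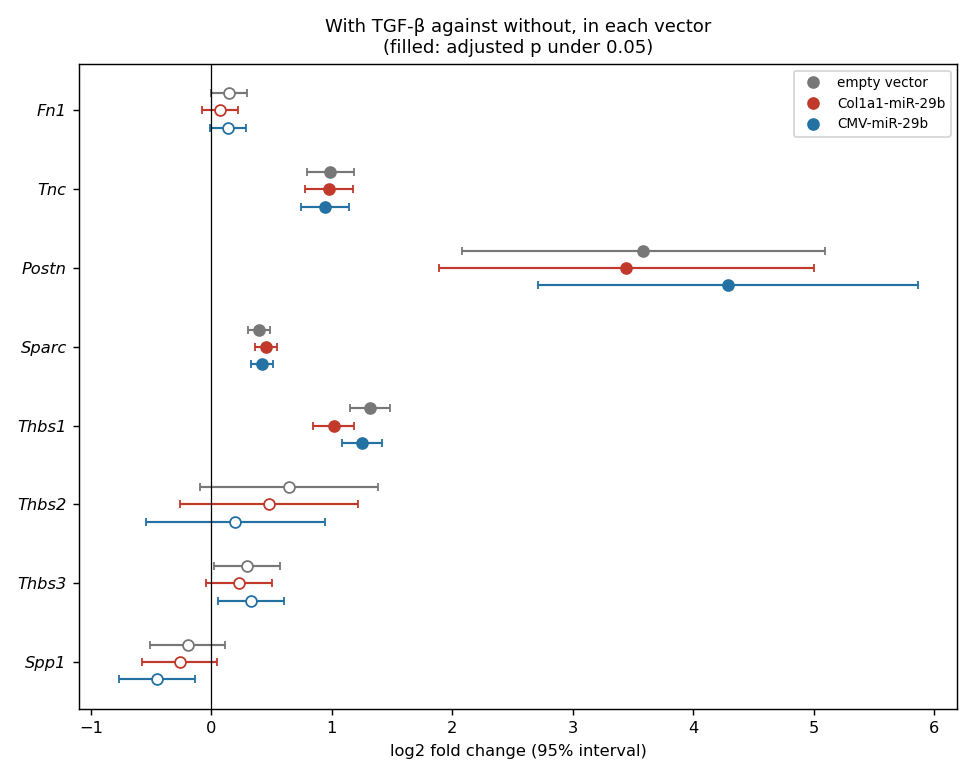
Log2 fold change with TGF-β against without it (x axis, with 95% intervals) for the 8 tested genes in each vector, filled where the adjusted p was under 0.05. Thbs1, Tnc, Postn and Sparc are filled in all 3 vectors, and the intervals of Postn are the widest.

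Whether the response to TGF-β differed between the vectors was tested as a difference of fold changes. Among the 8 genes 0 were called for Col1a1-miR-29b against empty vector, where 0% of all genes were called and 4.54% had an unadjusted p under 0.05. For CMV-miR-29b against empty vector 0 of the 8 were called, again with 0% of all genes called and 5.34% at an unadjusted p under 0.05. DESeq2 also called 0 of the 8 in each, where it called 0.0922% and 0.0669% of the genes it tested. Thbs1 alone had an unadjusted edgeR p under 0.05, in Col1a1-miR-29b cells, where its rise was smaller by 0.30 ± 0.11 on the log2 scale (difference -0.30, 95% interval -0.53 to -0.068, unadjusted p = 0.0148, adjusted p = 1). For Tnc the difference in response was -0.0088 (95% interval -0.28 to 0.27) in Col1a1-miR-29b cells and -0.043 (-0.32 to 0.23) in CMV-miR-29b cells. For Sparc the intervals were -0.073 to 0.19 and -0.10 to 0.16. For Postn they reached from -2.30 to 2.01 and from -1.35 to 2.75, so that a response several times larger or smaller lay within them. Both tests share the empty vector libraries.

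Fn1 and Tnc were lower in Col1a1-miR-29b cells than in empty vector cells, with TGF-β and without it. With TGF-β 2 of the 8 genes were called, both lower, where 12.9% of all tested genes were called and 7.63% were called lower. Without TGF-β the same 2 genes were called lower, where 6.27% of all genes were called and 3.70% called lower. The Fn1 libraries named above ranged from 1497 to 1535 CPM in treated Col1a1-miR-29b cells and from 1899 to 2083 CPM in treated empty vector cells. Their log2 difference was -0.41 ± 0.07, or 0.755 times the level (edgeR adjusted p = 0.0022). Without TGF-β the difference was -0.33 ± 0.07 (0.795 times, adjusted p = 0.0141). Neither pair of groups overlapped. Summed fibroblast markers (mostly collagen genes) were also lower with Col1a1-miR-29b. They stood at 3574 to 3733 against 4648 to 5628 CPM with TGF-β and 1858 to 2090 against 2340 to 2723 CPM without it. Osteoblast markers were lower too, at 19.8 to 24.1 against 28.5 to 36.5 CPM with TGF-β and 14.4 to 18.04 against 21.4 to 21.7 CPM without it. Without TGF-β the immune list (25.8 to 27.5 against 23.2 to 25.6 CPM) and the epithelial list (1.389 to 1.390 against 0.799 to 1.202 CPM) were higher. Both overlapped with TGF-β, and the endothelial and skeletal muscle lists overlapped in both conditions. The part of any list in the result was not tested. The Fn1 call without TGF-β was lost without empty vector library c (-0.32, edgeR adjusted p = 0.0534). It was lost also without the Col1a1-miR-29b library whose title letter is not given (-0.29, adjusted p = 0.0574), in which Fn1 was lowest.

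For Tnc the difference from the empty vector was -0.53 ± 0.09 with TGF-β (0.691 times, edgeR adjusted p = 0.0020) and -0.52 ± 0.09 without it (0.695 times, adjusted p = 0.0057). The highest Col1a1-miR-29b library, 60.4 CPM with TGF-β and 31.4 CPM without it, lay below the lowest empty vector library, at 77.2 and 38.9 CPM. These calls held without any 1 library (log2 -0.59 to -0.49 with TGF-β, -0.59 to -0.44 without it). TGF-β and the vector moved Tnc in opposite directions, and treated Col1a1-miR-29b cells, at 57.9 ± 3.76 CPM (SD, n = 3), stayed above untreated empty vector cells, at 42.3 ± 4.73 CPM.

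The other 6 tested genes did not pass the threshold between Col1a1-miR-29b and the empty vector. Sparc differed from the empty vector by 0.072 (95% interval -0.020 to 0.16, edgeR adjusted p = 0.33) with TGF-β and by 0.015 (-0.077 to 0.11, adjusted p = 0.90) without it. Thbs1 differed by -0.11 (-0.27 to 0.059, adjusted p = 0.44) with TGF-β and by 0.20 (0.031 to 0.36, adjusted p = 0.15) without it, where its 3 Col1a1-miR-29b libraries, 121 to 129 CPM, all lay above the 3 empty vector libraries, 104 to 119 CPM. Postn differed by -0.76 (-2.08 to 0.56, edgeR adjusted p = 0.50) with TGF-β. Its libraries met at 2.26 CPM (2.26 to 4.06 CPM in empty vector cells, 1.31 to 2.26 CPM in Col1a1-miR-29b cells). In raw counts they overlapped, at 165 to 289 and 92 to 167. Thbs2 and Thbs3 had intervals of -0.79 to 0.68 and -0.40 to 0.15. Spp1 differed by -0.38 ± 0.15 with TGF-β (adjusted p = 0.10) and by -0.32 ± 0.15 without it (adjusted p = 0.22). With TGF-β this difference passed the threshold with DESeq2 (-0.39, adjusted p = 0.0498), which called 3491 genes where edgeR called 2738. It passed also in edgeR without treated empty vector library d, at 94.8 CPM the lowest of its group (-0.56, adjusted p = 0.0099).

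**Figure D4:**
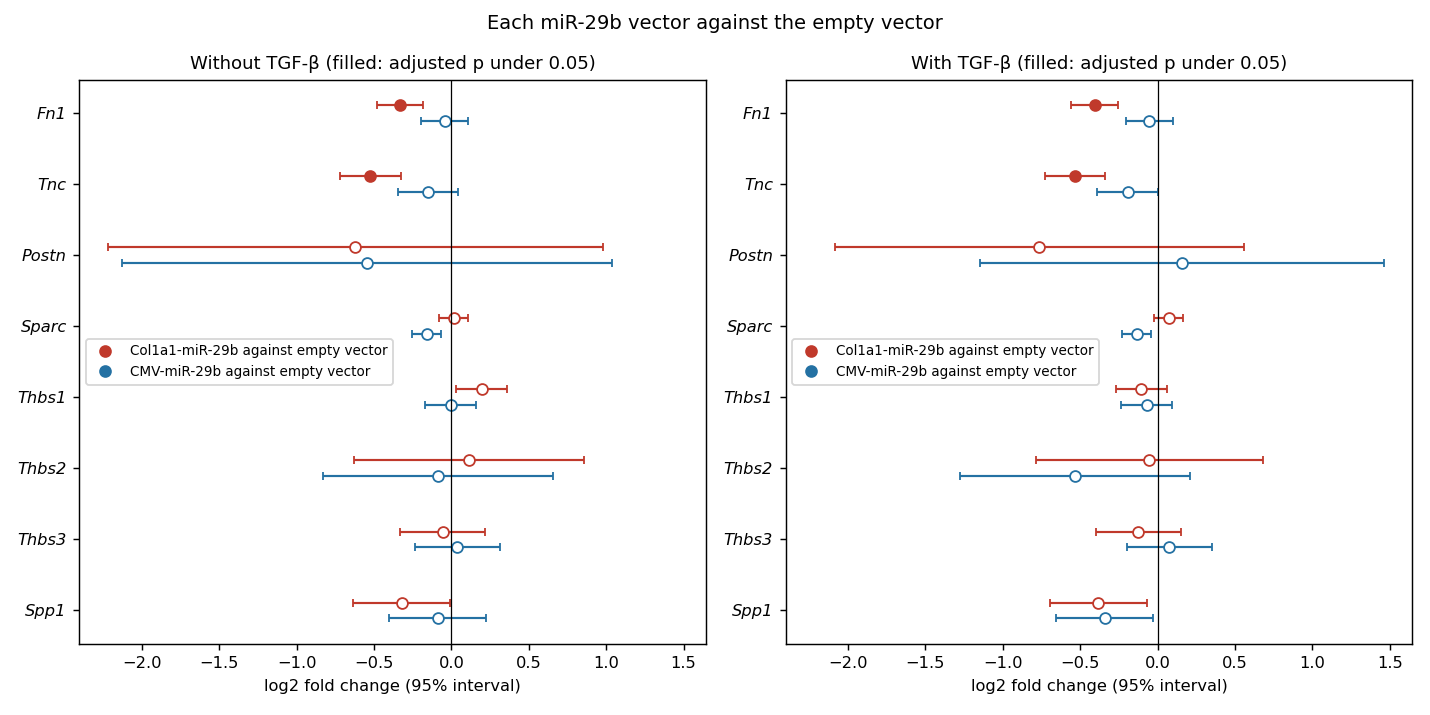
Log2 fold change of each miR-29b vector against the empty vector (x axis, with 95% intervals) for the 8 tested genes, without TGF-β on the left and with it on the right, filled where the adjusted p was under 0.05. Fn1 and Tnc of Col1a1-miR-29b are filled in both panels, and all CMV-miR-29b points are open.

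With CMV-miR-29b 0 of the 8 genes were called against the empty vector in either condition. With TGF-β 0.00945% of all tested genes were called, and 2 of the 8, Sparc and Spp1, were among the 12.0% with an unadjusted edgeR p under 0.05. Without TGF-β 0.00473% were called, and 1 of the 8, Sparc, was among the 5.46% under that limit. DESeq2 called 0 of the 8 in both, where it called 1.78% of the genes it tested with TGF-β and 0.154% without it. Without treated empty vector library d edgeR called 160 genes with TGF-β in place of 2, and 0 of the 8. Sparc, though not called, had the lower level in CMV-miR-29b cells without overlap in both conditions. The share of all tested genes without overlap was not counted. Sparc differed by -0.13 (95% interval -0.23 to -0.042, edgeR adjusted p = 0.26) with TGF-β and by -0.16 (-0.25 to -0.068, adjusted p = 0.64) without it. Fn1 differed by -0.053 (-0.20 to 0.098) and by -0.044 (-0.19 to 0.11), and Tnc by -0.19 (-0.39 to 0.00054) and by -0.15 (-0.35 to 0.044). Spp1 differed by -0.34 (-0.66 to -0.029, edgeR adjusted p = 0.38) with TGF-β and by -0.089 (-0.40 to 0.22) without it. The CMV-miR-29b cells held more Mir29b-1 precursor counts than the Col1a1-miR-29b cells, as given above. With TGF-β their summed fibroblast markers (3750 to 4184 against 4648 to 5628 CPM) and osteoblast markers (21.0 to 26.3 against 28.5 to 36.5 CPM) were lower too. Without it the osteoblast list (18.4 to 20.0 against 21.4 to 21.7 CPM) and epithelial list (0.267 to 0.782 against 0.799 to 1.202 CPM) were lower. The fibroblast list overlapped there (2051 to 2350 against 2340 to 2723 CPM). Their part in the result was not tested.

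Set against each other with TGF-β, the 2 miR-29b vectors differed in Fn1 and Sparc, in opposite directions. So 2 of the 8 genes were called, where 1.93% of all tested genes were called. Fn1 was higher in CMV-miR-29b cells by 0.35 ± 0.07 (1.28-fold, edgeR adjusted p = 0.0248) and Sparc lower by 0.21 ± 0.04 (difference -0.21, 0.867 times, adjusted p = 0.0318). Neither gene's libraries overlapped. The Sparc call was lost without any 1 of the 6 libraries (adjusted p = 0.0705 to 0.133) and the Fn1 call without any but CMV-miR-29b library e (0.0506 to 0.140). Both were lost with the groups compared alone (Fn1 0.0530 and Sparc 0.0541). DESeq2, which called 7.25% of the genes it tested, called 3 of the 8, adding Tnc (0.34, adjusted p = 0.0121), which in edgeR was at 0.34 ± 0.09 (adjusted p = 0.0717).

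Without TGF-β 0 of the 8 genes were called between the miR-29b vectors, where 1.81% of all tested genes were called, but 4 of them had an unadjusted edgeR p under 0.05, a limit that 16.4% of all genes passed. The 4 were Fn1 (0.29 ± 0.07, adjusted p = 0.0507), Tnc (0.37 ± 0.09, adjusted p = 0.0513), Sparc (-0.18 ± 0.04, adjusted p = 0.0529) and Thbs1 (adjusted p = 0.20). The libraries of each of these 4 genes did not overlap. The share of all tested genes without overlap was not counted, in this or any other comparison. DESeq2, which called 8.02% of the genes it tested, called Fn1, Tnc and Sparc (adjusted p = 0.0065, 0.0047 and 0.0148), with the same signs. In edgeR Fn1 passed without CMV-miR-29b library e (adjusted p = 0.0128). Sparc passed without CMV-miR-29b library d (adjusted p = 0.0372) or without the Col1a1-miR-29b library whose title letter is not given (adjusted p = 0.0307).

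The stretches before the transcription starts of genes that rose with TGF-β are printed because these genes moved together. RefSeq (GRCm38.p6) gave 10 windows of 250 bases before a start for 7 of the 9 genes, and none was read for Fn1 and Thbs1. Both strands were searched for the SMAD motif CAGAC. They were searched also for the AP-1 motif, which reads TGANTCA, for the TEAD motif, which reads GGAATG, and for the TATA box, which reads TATAAA. Over 32851 windows of the same length, 42.2% held CAGAC, 6.75% TGANTCA, 12.6% GGAATG and 12.4% TATAAA. Of the 10 windows 7 held CAGAC and 5 TATAAA, and 0 held TGANTCA or GGAATG. The 2 Tnc windows overlap and share the same TATAAA. Capitals mark the matches, GTCTG being CAGAC on the other strand. Other forms of these motifs, such as a TATA box with other letters, were not searched for and are not marked. Postn and Tnc each had 2 windows, and the one nearest to the 5′ end of the gene in the count table is printed. The printed Postn window has TATAAA 26 bases before the start and no CAGAC, whereas the other has CAGAC at 191 bases and no TATAAA. The window of Sparc has CAGAC at 35 bases. The printed Tnc window has TATAAA at 205 and CAGAC at 70 bases, and the other has no CAGAC. The Tnc window lies beyond the 5′ end that the count table gives for the gene, and the Sparc window lies inside the gene.
Postn, chr3:54360857-54361106, plus strand: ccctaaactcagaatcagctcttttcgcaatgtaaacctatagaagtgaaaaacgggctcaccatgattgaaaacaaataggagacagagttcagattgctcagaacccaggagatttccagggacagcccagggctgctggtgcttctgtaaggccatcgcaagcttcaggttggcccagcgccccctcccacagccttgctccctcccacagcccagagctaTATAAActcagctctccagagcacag
Sparc, chr11:55420081-55420330, minus strand: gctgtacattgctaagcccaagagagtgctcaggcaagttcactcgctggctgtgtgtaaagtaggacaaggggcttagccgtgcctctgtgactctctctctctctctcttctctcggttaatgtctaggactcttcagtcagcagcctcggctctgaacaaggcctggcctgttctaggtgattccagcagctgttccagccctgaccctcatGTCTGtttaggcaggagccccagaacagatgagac
Tnc, chr4:64046937-64047186, minus strand: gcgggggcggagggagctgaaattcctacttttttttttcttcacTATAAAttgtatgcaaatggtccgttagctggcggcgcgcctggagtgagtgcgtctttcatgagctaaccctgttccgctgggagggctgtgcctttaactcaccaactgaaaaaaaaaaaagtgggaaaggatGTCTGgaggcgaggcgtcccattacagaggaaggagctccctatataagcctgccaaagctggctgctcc
A match is a description of the letters, with no reading about binding.

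Other matricellular and adhesive glycoproteins, their receptors and known TGF-β response genes were counted beside the 9 genes. Of 30 other matricellular and adhesive genes, 18 were tested and with TGF-β in empty vector cells 5 rose and 1 fell, with a median log2 fold change of 0.074 over the 18. Ccn5, Ccn4 and Ccn2, growth regulators of the CCN family, rose by 2.37 ± 0.24, 2.20 ± 0.07 and 1.74 ± 0.10 on the log2 scale (edgeR adjusted p = 9.1e-06, 1.7e-11 and 1.1e-08). Ccn3 of the same family fell by 1.03 ± 0.15 (adjusted p = 3.4e-04). The same counts, 5 higher and 1 lower, were found in each miR-29b vector, and 0 of the 18 were called in any comparison between vectors by edgeR, with at most 3 at an unadjusted p under 0.05.

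Among 18 receptors of these proteins 14 were tested, and with TGF-β in empty vector cells 7 rose and 1 fell (median 0.10). Itgb3, the partner of the αv integrin chain in a receptor for osteopontin and fibronectin, rose by 1.81 ± 0.30 (edgeR adjusted p = 0.0012), from 0.805 ± 0.27 to 2.82 ± 0.43 CPM (SD, n = 3). Itgb5 rose by 0.82 ± 0.06 (adjusted p = 2.0e-07) and Lrp1, an endocytic receptor for thrombospondins, by 0.79 ± 0.09 (adjusted p = 3.0e-05). Itgb8, whose integrin activates latent TGF-β, fell by 0.74 ± 0.14 (adjusted p = 0.0035). Where 12.9% of all tested genes were called, Col1a1-miR-29b against the empty vector with TGF-β gave 2 higher receptors and 1 lower. These were Itgb6 (3.07 ± 0.66, adjusted p = 0.0069), at a mean of 0.297 CPM over all libraries, Sdc4 (0.20 ± 0.04, adjusted p = 0.0067) and Lrp1 (-0.34 ± 0.09, adjusted p = 0.0196), named after their values had been seen. Lrp1 and Sdc4 thus differed in opposite directions. CMV-miR-29b against Col1a1-miR-29b gave Sdc4 alone among the 14, lower with TGF-β (-0.18 ± 0.04, edgeR adjusted p = 0.0485) and without it (-0.19 ± 0.04, adjusted p = 0.0418). Of all tested genes 1.93% and 1.81% were called there.

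All 14 TGF-β response genes were tested, and 11 rose and 1 fell with TGF-β in empty vector cells (median 1.15). The largest rises were those of Pmepa1, a feedback inhibitor of TGF-β signalling, by 3.08 ± 0.08 (edgeR adjusted p = 1.4e-12), Ltbp2, a latent TGF-β binding protein, by 2.22 ± 0.11 (adjusted p = 2.5e-09) and Ldlrad4 by 2.15 ± 0.13 (adjusted p = 2.8e-08). The gene that fell was Cnn1 (calponin, by 0.64 ± 0.17, adjusted p = 0.0342). Thbs1 and Tnc, with rises of 1.32 and 0.99 on the log2 scale, lay within the range of the called rises, 0.73 for Timp1 to 3.08. Sparc, at 0.40, lay below that range. Postn, at 3.59, lay above it, but its 95% interval, 2.08 to 5.09, reached into it. Col1a1-miR-29b against the empty vector with TGF-β gave 6 lower response genes and 0 higher, where 12.9% of all tested genes were called and 7.63% called lower. Among the 6 were Col3a1 (-0.87 ± 0.11, edgeR adjusted p = 4.5e-04) and Inhba (-0.82 ± 0.13, adjusted p = 0.0011). Without TGF-β, where 6.27% were called, 1 was higher, Pmepa1 (0.37 ± 0.07, edgeR adjusted p = 0.0087), and 1 lower, Col3a1 (-0.59 ± 0.11, adjusted p = 0.0075). These 3 genes were named between vectors after their values had been seen. CMV-miR-29b gave 0 of the 14 against the empty vector in either condition. At an unadjusted edgeR p under 0.05 were 8 with TGF-β and 5 without it, beside 12.0% and 5.46% of all tested genes.

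**Figure D5:**
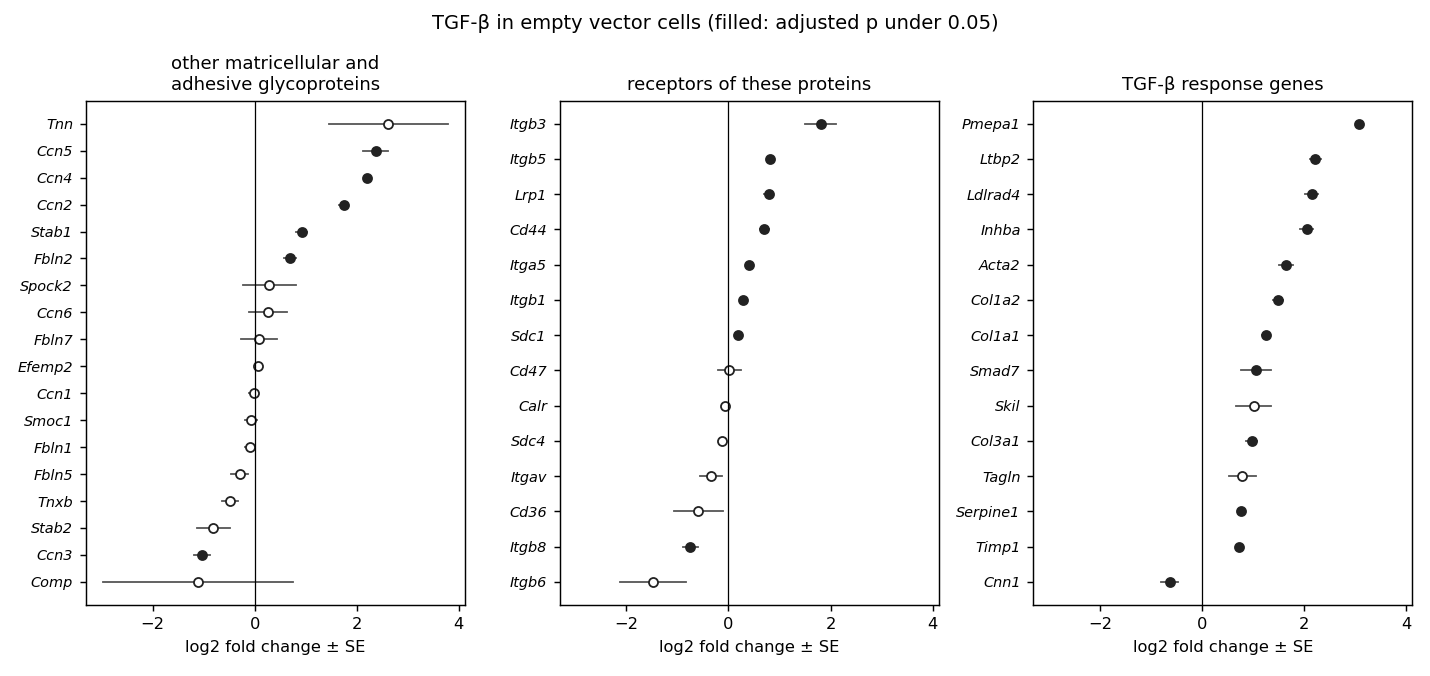
Log2 fold change with TGF-β in empty vector cells (x axis, with SE) of the tested genes of the 3 lists, filled where the adjusted p was under 0.05. Ccn5, Ccn4 and Ccn2 lie highest among the called matricellular genes, and 11 of the 14 TGF-β response genes are filled to the right of 0.

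For each tested gene the nearest pattern over the 18 libraries was sought among 13904 genes with a mean of at least 1 CPM, as the smallest root-mean-square difference of log2 CPM after centring on each gene's mean. Thbs1 lay nearest to Timp3, an inhibitor of matrix proteases (difference 0.11, against a spread of Thbs1 itself of 0.61), and next to Spsb1. Tnc lay nearest to Col12a1, a fibril-associated collagen (0.12 against 0.54), then Ackr3. Sparc lay nearest to Vasn, a TGF-β binding membrane protein, and Itga5, the fibronectin receptor chain (0.071 and 0.073 against 0.23). Fn1 lay nearest to Scd2 and Rreb1 (0.074 and 0.075 against 0.19), and Spp1 to Eps8 and Fam129a (0.10 and 0.12 against 0.27). Thbs3 lay nearest to Plxnb1 and Mmp11 (0.11 and 0.12 against 0.21). Postn lay nearest to Megf10 and Lce1f (0.77 and 0.85 against 2.12), and Thbs2 to Dcxr and Nfkbiz (0.33 for both, against 0.46). These likenesses are descriptions over 18 libraries that share their treatments.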

How the data were processed

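Poly(A) RNA of 18 MEF libraries was sequenced for the authors by LC Sciences, as paired ends with a stranded kit. Per the labels and the paper, reads were trimmed with cutadapt, checked with FastQC, aligned with HISAT2 and assembled with StringTie. Tool versions, and how counts were taken from the assemblies, are not given in the sources used here. The authors deposited whole-number counts per gene without normalization, and FPKM values with 0.0001 in place of 0. Gene coordinates matched GRCm38 (identical for 52506 of 55450 genes and 7 of the 9 in GENCODE M21, Fn1 and Tnc differing), although the processing notes list mm9. In both Col1a1-miR-29b groups 1 count column has a name that shows the group but fits no title. Its counts entered as a library of that group with no replicate letter, and 2 FPKM columns of per-sample values were not used.

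The tests were run on counts in R 4.3.3 by edgeR 4.0.16, with its filterByExpr filter, TMM factors, a mean for each of 6 groups and quasi-likelihood F tests (Benjamini-Hochberg over 21161 genes, threshold 0.05). SE was computed from the F statistic and 95% intervals from the t distribution with the fit's degrees of freedom. The code was tested on simulated counts. Alternatives were DESeq2 1.42.0, its size factors, total-count scaling, every gene with at least 1 count, groups compared alone, a replicate block, leaving out each library, a test against a 2-fold change, and, chosen after seeing the data, fits without the 2 unlettered libraries and with counts divided by 4. Per the paper, the experiment was repeated for each group. The paper does not state whether the repeats were separate cultures, or which library letter belongs to which repeat. The p-values therefore measure the spread between these libraries. No libraries held identical values, and the mean chi-square per gene between libraries of a group was 36.8 to 58.8.

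All 9 genes are named. From each list, genes past the threshold with TGF-β in empty vector cells and a mean of at least 1 CPM are named, up to the 3 largest rises and falls, and for each tested gene the 2 nearest patterns. The genes and lists were chosen with earlier results of these data known. The table's pathway annotation was not used.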

Additional observations from a re-analysis of the deposited data

How the results depend on the processing

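With TGF-β the 4 genes called in empty vector cells were 4 under every alternative except the test against a 2-fold change (1). That test gave 0 in Col1a1-miR-29b and 1 in CMV-miR-29b cells, and 0 for Col1a1-miR-29b against the empty vector and for the 2 miR-29b vectors with TGF-β. The 2 genes called between the miR-29b vectors with TGF-β fell to 0 with the groups compared alone and without the 2 unlettered libraries, and to 0 to 1 without single libraries. Without TGF-β their count of 0 became 2 with DESeq2 size factors, 1 with total-count scaling, 1 without the unlettered libraries, 3 with counts divided by 4, 3 with DESeq2, and 0 to 1 without single libraries. Col1a1-miR-29b against the empty vector without TGF-β gave 1 of its 2 genes without the unlettered libraries, 1 to 2 without single libraries and 0 against a 2-fold change. Of 88 single-gene values, 0 of the 18 called ones changed sign. Uncalled ones changed sign in 12 of 703 values under the alternatives and in 67 of 624 without single libraries, up to a size of 0.70 (Postn). Of those the report gives, the ranges without single libraries were, with TGF-β, -0.060 to 0.52 for Thbs2 in CMV-miR-29b cells, and, against the empty vector, -0.25 to 0.31 for Thbs2 in treated Col1a1-miR-29b, -0.049 to 0.058 for Sparc in untreated Col1a1-miR-29b and -0.12 to 0.045 for Fn1 in untreated CMV-miR-29b cells. The difference in response ranged from -0.093 to 0.059 for Tnc and -1.32 to 1.40 for Postn with Col1a1-miR-29b, and from -0.12 to 0.029 and -0.47 to 1.41 with CMV-miR-29b. With Col1a1-miR-29b the one of Tnc was also 0.000948 with total-count scaling and 0.0012 with the groups compared alone, and the one of Postn 1.57 without the unlettered libraries.

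Same-letter libraries deviated together by a mean correlation of 0.013 (36 pairs, -0.12 to 0.17), against -0.0066 over 70 pairs of different letters, so the letters were not taken as pairs. With the replicate block, in 16 libraries, 0 genes were called between the miR-29b vectors with TGF-β, and 1, Tnc, for Col1a1-miR-29b against the empty vector without TGF-β (Fn1 -0.31, adjusted p = 0.0786). It changed no other count. The difference in response of Postn with Col1a1-miR-29b was 1.43 with the block and was not called. The low counts of Postn and Thbs2 went with wide intervals, and Tgfbi was not tested.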
